A study of Mus musculus with 15 samples.

Results

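The baseline gene expression of normal mouse choroid plexus was described from 5 arrays, 1 for each wild-type mouse. The animals were labelled as male C57BL/6J mice, 3 weeks old and wild type for Add1, the gene of the membrane skeleton protein alpha-adducin, and total RNA of dissected choroid plexus was measured. These were all the samples titled as Add1 wild-type among the 15 arrays of the series. The other arrays came from 5 heterozygous and 5 null mice with the same labels for strain, sex and age, and were used for values within their own genotype and a check of their sex label, with no genotypes compared. The labels do not make clear which ventricles were dissected. Each sample also carries a label number of unstated meaning, which is 429 for wild-type arrays 1 and 2, 432 for arrays 3 and 4, and 451 for array 5. Whole tissue was used, so fewer cells of a type and less RNA per cell cannot be told apart.

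The choroid plexus is a folded sheet of epithelium over a core of loose connective tissue, leaky capillaries and macrophages, and it hangs into the ventricles of the brain. Its epithelial cells move sodium, chloride, bicarbonate and water from blood to ventricle to make cerebrospinal fluid, and they secrete carrier proteins such as transthyretin into it. Tight junctions between the cells separate blood from cerebrospinal fluid, and tufts of cilia stand on the ventricular face.

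Values are log2 signals, in which a difference of 1 is a doubling. A gene was represented by its probe set with the highest wild-type mean among those with 1 gene symbol, which gave 19938 genes from 35556 probe sets. Signal depends on how well each probe binds as well as on transcript amount, so an order between genes below is an order of signal and not of copies per cell. Background was set with the 1027 measured olfactory receptor genes, which serve smell in the nose. Their median mean was 2.97, and the 95th percentile, 4.07, was taken as the bound for a detectable signal, with the 99th percentile, 4.97, as a stricter bound. A signal above the bound in all 5 arrays was seen for 13516 genes, 67.8% of all, and above the stricter bound for 10389 genes, 52.1%. The median over all genes was 5.28. A further group, the 998 genes with the highest means (5.01% of genes), is called the top class below. The genes and groups that follow were ranked by these same signals, so their levels are a description and were not tested.

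**Figure D1:**
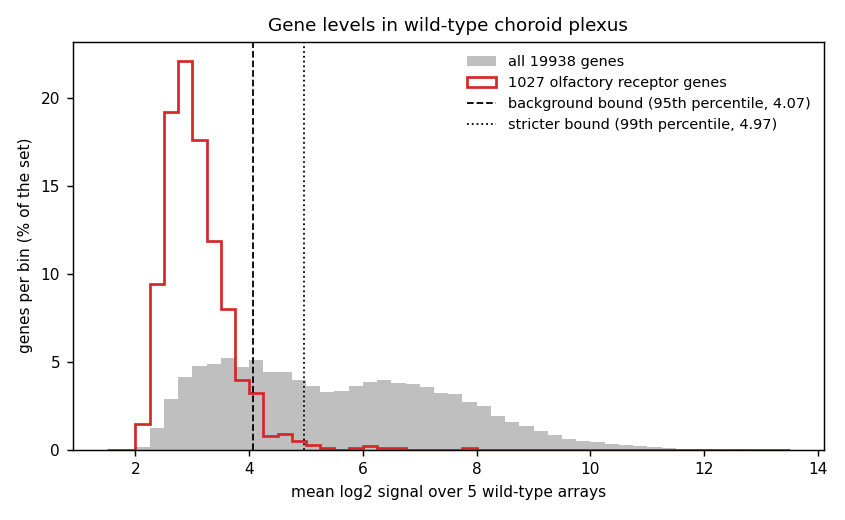
Distribution of mean log2 signal over the 5 wild-type arrays (x axis) as the percent of each gene set per bin (y axis), for all 19938 genes in grey and for 1027 olfactory receptor genes in red. The dashed and dotted lines are the 2 bounds, 4.07 and 4.97, and the grey distribution reaches far to the right of the red one.

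The tissue label was first set against its markers. Ttr, the transthyretin gene whose protein carries thyroid hormone and retinol-binding protein in cerebrospinal fluid, read 12.99, 13.15, 13.19, 13.04 and 13.02 in arrays 1 to 5. It ranked 2 of 19938 genes, and its arrays lay within 0.20 of each other. Kcnj13, the inward rectifier potassium channel Kir7.1 of the ventricular membrane, read 12.72, 12.61, 12.52, 12.46 and 12.58 and ranked 6. Folr1, a folate receptor that carries folate across this epithelium, read 11.35, 11.28, 11.30, 11.23 and 11.29 and ranked 49. Enpp2, another marker of this epithelium, was not analysed here. Every array had these 3 markers far above the stricter bound, and no array stood apart in all of them. The male label was met in all 5 arrays: Kdm5d, Uty and Eif2s3y, which lie on the Y chromosome, read from 6.97 to 7.90, and Xist, the RNA of the inactive X chromosome, read from 3.12 to 3.88, below the bound. Add1 itself read from 7.78 in array 3 to 8.04 in array 2.

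The highest signals came from a mixture of genes used by every cell and genes of secretion and transport. Eef1a1, the elongation factor that brings tRNA to the ribosome, was first with 13.13 ± 0.0427 (SD, n = 5). After Ttr came Baiap2l1, an adaptor between membranes and actin, with 12.98 ± 0.0723, and Psap, the precursor of the lysosomal saposins, with 12.77 ± 0.0487. Ctsd, a lysosomal protease, read 12.08 ± 0.0327, and the small nuclear RNA Rn7sk read 12.70 ± 0.0335. Among genes of energy supply, mitochondrially encoded COX2 of cytochrome oxidase read 12.51 ± 0.124, the ATP synthase genes Atp5a1 and Atp5b read 11.85 and 11.79, and the glycolytic genes Pgk1 and Aldoa read 11.78 and 11.67. Fth1, which stores iron, read 11.82, and Hspa8, a chaperone, read 12.01. Lbp, which binds bacterial lipopolysaccharide and is best known as a plasma protein of the liver, read 11.78, 11.80, 11.79, 11.79 and 11.72 and ranked 24.

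Several cellular machines had many members in the top class, which held 5.01% of all genes. ATP synthase genes were there for 16 of 17 measured members, with a median of 10.85. Vacuolar proton pump genes were there for 12 of 24, complex I genes for 19 of 43, and complex III and IV genes for 11 of 28. Ribosomal protein genes were there for 34 of 72, with a median of 8.77. The list of endoplasmic reticulum folding genes had 12 of 21 members there and a median of 9.32, with the chaperones Hspa5 at 11.82 ± 0.0803 and Hsp90b1 at 11.75 ± 0.0716 in front. The lowest member of that list was Trib3, a stress-induced pseudokinase, at 4.72. Ddit3, a transcription factor induced with it, read 5.62, and Herpud1, of endoplasmic reticulum degradation, read 9.53. Proliferation genes were near background, with only Cdk1 and Ccna2 of 9 measured members above the bound in all 5 arrays and a median of 4.06. Among all genes 67.8% were above the bound. Mki67, a marker of cycling cells, read 3.96, 3.93, 3.92, 3.86 and 3.94, all under the bound.

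Secreted proteins of cerebrospinal fluid gave some of the highest signals. Of 22 measured members, 21 were above the bound in all 5 arrays and 13 were in the top class. The shares of all genes were 67.8% and 5.01%, and the list median was 10.29. Cst3, the protease inhibitor cystatin C, read 12.32, 12.38, 12.34, 12.29 and 12.37. Apoe, a lipid carrier, read 12.22, 12.20, 12.15, 12.29 and 12.26, and Clu, the chaperone clusterin, read 12.08, 12.12, 12.07, 12.06 and 12.09. These 3 genes differed less between mice than the median gene above the bound, whose SD was 0.0983. Growth factor genes were also high: Igf2, insulin-like growth factor 2, read 10.99, 11.19, 10.92, 10.92 and 11.16, and Igfbp2, which binds it, read 12.03, 12.08, 11.96, 11.93 and 12.07. Arrays 2 and 5 were the highest for both. Sostdc1, a secreted inhibitor of BMP and Wnt signals, read 10.96 ± 0.113. Spint2, a protease inhibitor, read 10.98 ± 0.048. Trf, the iron carrier transferrin, read 10.36, 10.48, 10.14, 10.48 and 10.64. At the low end Rbp4, the plasma retinol carrier that binds transthyretin, had a mean of only 5.44, and Scg2, a granin of neuroendocrine vesicles, had 4.16.

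Ion and water transport genes had the highest list median, 10.39. All 25 measured members exceeded the bound in all 5 arrays and 19 were in the top class, beside 67.8% and 5.01% of all genes. Slc4a10, a sodium-coupled bicarbonate transporter, read 11.62, 11.81, 11.79, 11.82 and 11.76. Slc12a2, the sodium-potassium-chloride cotransporter NKCC1, read 11.60, 11.73, 11.63, 11.63 and 11.69, and its activating kinase gene Stk39 read 11.58 ± 0.0439. Both transporters varied by 0.20 or less between mice. Clic6, an intracellular chloride channel family member, read 11.65 ± 0.0789, and Trpm3, a cation channel, read 11.69 ± 0.0438. Aqp1, the water channel of the ventricular membrane, read 10.70, 10.67, 10.62, 10.70 and 10.69. Of the pump subunits, Atp1b1 read 11.01, Atp1b3 10.39 and Atp1b2 8.77, and the pump regulator Fxyd1 read 10.56. The anion exchanger Slc4a2 read 10.56 and the sodium bicarbonate cotransporter Slc4a5 read 10.28. Carbonic anhydrases, which make the bicarbonate these carriers move, were led by membrane-bound Car12 at 10.96 ± 0.0498, cytosolic Car2 at 10.56 ± 0.0602 and Car14 at 10.27 ± 0.124.

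Carriers of vitamins, metals and organic solutes were more uneven. Of 34 measured members 32 exceeded the bound in all 5 arrays, beside 67.8% of all genes. There were 13 in the top class, and the median was 8.06. Slco1c1, a thyroid hormone and organic anion carrier, read 11.51, 11.46, 11.52, 11.45 and 11.41. Slc31a1, the copper importer, read 10.92, 11.08, 11.16, 10.88 and 10.87, and Slc23a2, which takes up vitamin C, read 10.92 ± 0.0702. The amino acid carrier Slc38a3, the glucose carrier family member Slc2a12 and the sulfate carrier Slc13a4 read 10.82, 10.78 and 10.59. The main glucose carrier Slc2a1 read 9.71. Over the whole solute carrier superfamily 34 of 379 measured genes were in the top class, against 5.01% of all genes, and the superfamily median of 5.34 was close to the median of all genes. The iron exporter Slc40a1 read 4.21, 3.81, 3.96, 4.01 and 3.84, and the prostaglandin carrier Slco2a1 read 3.85 ± 0.0757, and neither exceeded the bound in all arrays.

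**Figure D2:**
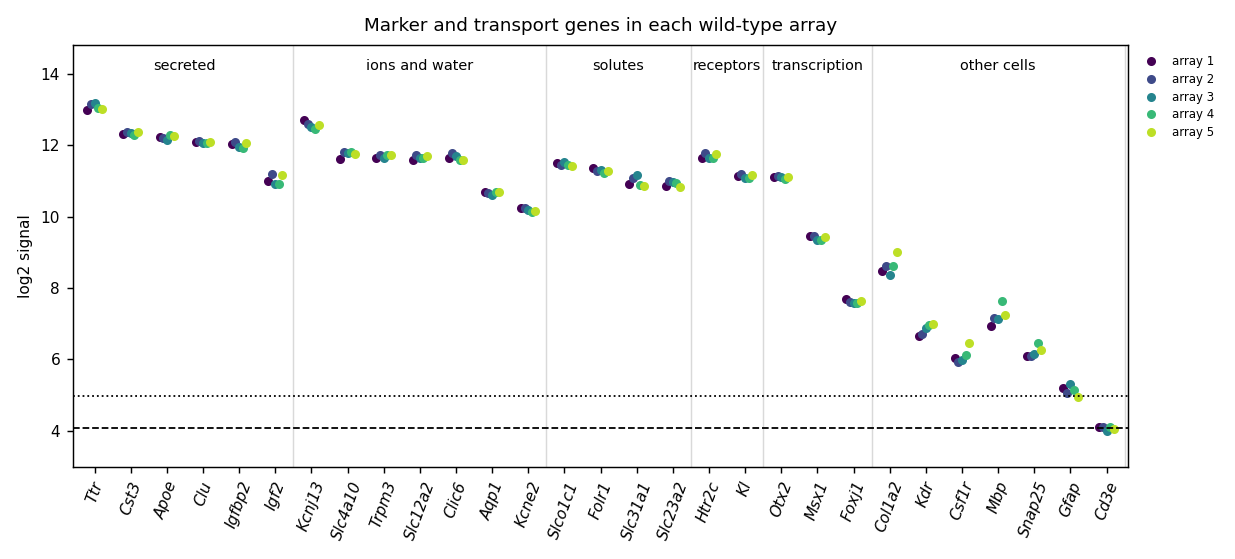
Log2 signal (y axis) of named genes (x axis), grouped by role, with 1 point for each of the 5 wild-type arrays and the dashed and dotted lines at the bounds of 4.07 and 4.97. Ttr and Kcnj13 lie highest, the points of most epithelial genes nearly coincide, and genes of other cell types lie lower and are more scattered.

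The receptor genes Htr2c and Kl stood far above the others in signal. Htr2c, a serotonin receptor long known from this epithelium, read 11.65, 11.77, 11.63, 11.64 and 11.75. Kl, which encodes klotho, a coreceptor for FGF23, read 11.15, 11.20, 11.09, 11.09 and 11.18. The uptake receptors Lrp1 and Igf2r followed at 9.56 and 9.21, and the insulin and IGF1 receptor genes Insr and Igf1r read 8.26 and 8.21. Crhr2, a receptor of urocortins, read 7.83 and Lepr, the leptin receptor, read 7.64. Lrp2, the uptake receptor megalin, read 4.09, 4.02, 4.09, 3.99 and 4.09, at the bound itself, and Vipr2, a receptor of vasoactive intestinal peptide, read 3.49. In all, 19 of 24 measured receptor genes exceeded the bound in every array and 15 the stricter one. The shares of all genes were 67.8% and 52.1%.

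Transcription factors were led by Otx2, a homeobox factor needed for choroid plexus formation, at 11.11, 11.14, 11.10, 11.05 and 11.12. Msx1, another homeobox factor, read 9.41 ± 0.054, Tead1, a partner of the Hippo pathway, read 9.31 ± 0.0814, and Sox9, a factor of glia and epithelia, read 8.83 ± 0.0517. Factors of the multiciliated cell programme spread widely: Gmnc read 8.88, Rfx3 8.49, Foxj1 7.62 and Mcidas 5.61. Lmx1a was not analysed here. Genes of position along the brain had little signal. Among 12 measured genes of hindbrain position 9 exceeded the bound in all arrays but only 3 the stricter one. Among 9 of forebrain position the counts were 5 and 1. The shares of all genes were 67.8% and 52.1%. The highest hindbrain gene, Hoxb3, read 5.53, 5.39, 5.45, 5.61 and 5.47, and the highest forebrain gene, Emx1, read 5.96, 5.68, 5.98, 5.94 and 5.51.

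Junction and cilium genes were detected broadly at medium signal. All 24 measured junction genes exceeded the bound in every array, with a median of 7.06. Cldn1 read 10.51, 10.72, 10.63, 10.56 and 10.28 and Cldn2, a pore-forming claudin of leaky epithelia, read 10.03, 10.08, 10.06, 9.98 and 10.03. Cldn5, the claudin of brain capillaries, lay between 4.83 and 5.33. Of 29 measured cilium genes 27 exceeded the bound, with a median of 6.77. The radial spoke gene Rsph9 was highest at 9.21 ± 0.144, and Dnah7a, an inner dynein arm heavy chain, read 3.53, below the bound. All 8 ependymal markers, of the ciliated lining next to the plexus, exceeded the bound and 7 the stricter one, beside 67.8% and 52.1% of all genes. Their median was 6.53, and their means ran from 4.54 for Tmem212 to 9.19, with Ccdc153 at 5.78.

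Several families had a single member or a few members far above the rest. Of 15 inward rectifier channels only Kcnj13 passed the stricter bound in every array, at 12.58, and the next, the vascular channel Kcnj8, read 5.23. Of 14 serotonin receptors only Htr2c did, and Htr1b was next at 4.73. Of 5 KCNE subunits, which modify potassium channels, only Kcne2 was above either bound, at 10.25, 10.25, 10.18, 10.13 and 10.17. Aqp1 led 12 aquaporins, with Aqp11 next at 6.67 and the astrocyte water channel Aqp4 at 6.04. Among 20 TRP channels Trpm3 at 11.69, Trpv4, an osmosensitive channel, at 10.15 and Trpm7 at 8.09 led, and 13 members did not exceed the bound in all arrays. Igfbp2 led 7 IGF-binding proteins at 12.01, with Igfbp7 next at 10.16. Type IV collagens, which form basement membrane, showed the opposite pattern: all 6 exceeded the stricter bound, and the highest, Col4a5, read only 6.41.

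Several families typical of other tissues were at or near background. None of 34 bitter taste receptors, 19 placental prolactins, 5 caseins or 3 major urinary proteins exceeded the bound in all 5 arrays. Neither did any of the 8 UDP-glucuronosyltransferases analysed, of which the highest were UGT2 genes, led by Ugt2b38 at 3.79. Of 163 vomeronasal receptors 2 exceeded it, the higher being Vmn2r14 at 4.63. Among 8 voltage-gated sodium channels, which carry action potentials, Scn2a alone did, at 6.05, 6.30, 6.38, 6.74 and 6.41. Other families were mixed. HOX genes exceeded the bound for 15 of 37 members and the stricter bound for 2. Type I interferon genes exceeded the lower bound for 1 of 13, Ifna5 at 5.66, and interleukins for 16 of 36, led by Il33 at 5.90. Of 52 keratins, 20 were above the bound, and the simple-epithelium pair Krt18 and Krt8 read 9.24 and 8.87 while the next, Krt33b, read 5.98. Of the 3 adducins, Add3 read 9.52, Add1 read 7.92 and Add2, the beta subunit of red cells and neurons, read 3.49. These counts stand beside 67.8% of all genes above the bound. A value under the bound says that the probe set gave no signal beyond that of olfactory receptors and does not show that the transcript was absent.

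**Figure D3:**
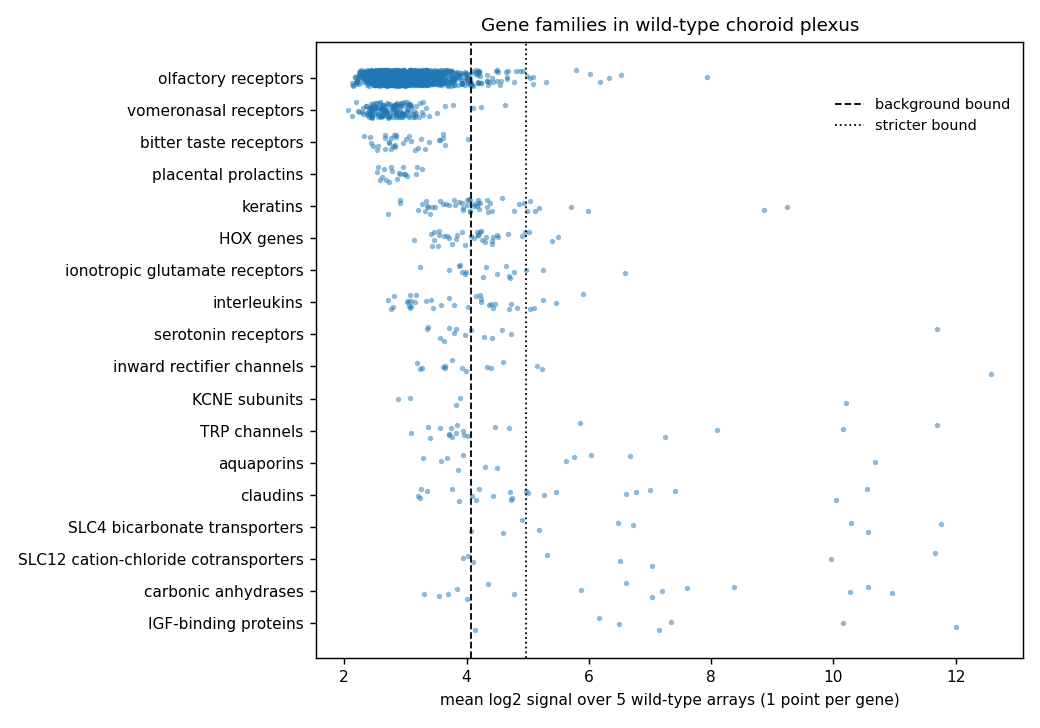
Mean log2 signal over the 5 wild-type arrays (x axis) of every measured member of 18 gene families (y axis, 1 point per gene, vertical jitter only for visibility), with the bounds at 4.07 and 4.97. Inward rectifiers, serotonin receptors, KCNE subunits and aquaporins each show 1 point far to the right, and receptors of smell and taste lie almost wholly left of the dashed line.

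Most markers of other cells exceeded the bound, as did 67.8% of all genes, at lower signal than the 3 epithelial markers. Which of these cells were present was not tested. Stromal and meningeal genes had the highest median of these lists, 7.56, with 12 of 13 above the bound. Dcn, the matrix proteoglycan decorin, read 8.64, 9.15, 8.73, 9.19 and 9.20. Endothelial genes were above the bound for all 13 members, with a median of 5.37, and Kdr, a VEGF receptor, read 6.67, 6.70, 6.89, 6.97 and 7.00. Slco1a4, a carrier of brain capillaries with close relatives in its family, read 9.76. Macrophage genes were above the bound for 11 of 14 and above the stricter bound for 7. Their median was 4.99, with C1qa, a complement component, highest at 6.23. Pericyte and smooth muscle genes were above the bound for 8 of 9 and above the stricter bound for 3. Their median was 5.22, and Rgs5 was highest at 7.08. Oligodendrocyte genes were above the bound for 8 of 9 and neuron genes for 12 of 13, with medians of 5.54 and 4.88. The stricter bound was exceeded by 6 of 9 and 5 of 13, beside 67.8% and 52.1% of all genes for the lower and the stricter bound. Cerebellar neuron genes were above the lower bound for 8 of 9, the highest being Car8 at 6.61. Astrocyte genes were above it for 9 of 10, with a median of 6.15. Of these the amino acid carrier gene Slc7a10 read 10.24, in the top class, and Gfap, the astrocyte filament gene, read 5.13. Among immune cells other than macrophages, 3 of 9 lymphocyte genes, 2 of 6 mast cell genes and none of 8 neutrophil genes exceeded the bound. The stricter bound was exceeded by none of the lymphocyte genes. Melanocyte genes exceeded the lower bound for 3 of 5, and 3 of the 11 erythroid genes listed were measured, all above it.

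Expression differed little between the 5 mice. Over the 14023 genes with a mean above the bound, the correlation between pairs of arrays ran from 0.9911 to 0.9957. This is a description over genes that share probes and normalization. The median SD of genes with a mean above the bound was 0.0983. The steadiest of the high-signal genes was Hnrnpab, an RNA-binding protein gene, at 9.94, 9.94, 9.94, 9.91 and 9.94. Rpn2, a subunit of the glycosylation complex, Pdia6, a disulfide isomerase, and Cltc, the clathrin heavy chain, followed with SDs of 0.0179, 0.0187 and 0.02. Actb, cytoplasmic actin, was also among the 10 steadiest, at 11.88, 11.88, 11.88, 11.86 and 11.83.

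A gene was called variable when its mean exceeded the bound and its highest and lowest arrays lay at least 1 apart, a doubling. There were 61 such genes of 14023, or 0.435%. Zfp617 lay at the limit, Nbl1 and Lhfpl4 were just inside the rule with ranges of 1.01 each, and just outside were Leng8, Mgp and Slc7a2 with 0.98, 0.99 and 0.99. Variable genes lay mostly at low to medium signal, 44 of them with a mean below 6.32.

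**Figure D4:**
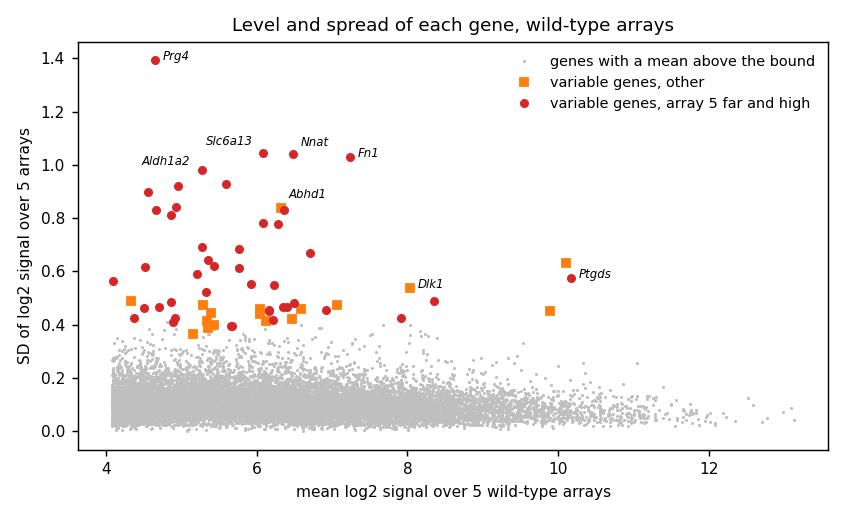
SD over the 5 wild-type arrays (y axis, log2) against mean log2 signal (x axis) for the 14023 genes with a mean above the bound, in grey. Red circles are the 44 variable genes for which array 5 was the high array and the farthest from the median, orange squares are the other 17 variable genes, and the red circles include the largest SDs, up to 1.39 for Prg4.

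Most of the variable genes stood out in 1 animal. Array 5 was the array farthest from the median of the 5 for 48 of the 61 variable genes (78.7%), whereas it was the farthest for 21.7% of the 14023 genes. In 44 of the 48 it was the high array and in 4 the low one. The 44 genes exceeded the mean of the other 4 arrays by a median of 1.26, or 2.4-fold, with a range from 1.59-fold to 8.54-fold. For 17 of the 44 the mean of the other 4 arrays lay below the stricter bound. Prg4, with the largest fold, and Dpp4 had means of 4.04 and 3.84 in those 4 arrays, under the lower bound. Their 5-array means exceeded that bound only through array 5, and their folds start from background signal. Without array 5 only 8 genes remained variable, all among the 61. Its correlations with the other arrays, 0.9911 to 0.9933, were the lowest, and the others ran from 0.9938 to 0.9957. Since the rule chose genes by their spread, these values describe the arrays and were not tested.

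Matrix and secreted genes were among those 44. Prg4, the lubricating proteoglycan of joints and other sliding surfaces, read 4.20, 4.05, 4.11, 3.78 and 7.13. It lay around the bound in arrays 1 to 4 and well above it in array 5. Fn1, fibronectin, read 6.90, 7.00, 6.37, 6.90 and 9.03, a 4.72-fold excess in array 5, and the imprinted gene Nnat, neuronatin, read 6.29, 5.88, 5.76, 6.17 and 8.30. Ptgds, which makes prostaglandin D2 and is abundant in the meninges, read 9.98, 10.03, 9.65, 10.03 and 11.16. Serpind1, a thrombin inhibitor, read 4.28, 4.33, 3.83, 4.24 and 6.13, and Igfbp6, another IGF carrier, read 6.45, 6.42, 6.01, 6.32 and 7.30. Apart from Prg4, array 3 was the lowest for each of these genes.

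Retinoid genes appeared in the same set. Aldh1a2, which makes retinoic acid in the meninges, read 4.98, 4.70, 4.49, 5.28 and 6.95, and Aldh1a1, a related enzyme, read 6.32, 6.47, 6.38, 6.47 and 7.90. Crabp2, a carrier of retinoic acid, read 5.13, 5.09, 4.92, 5.12 and 6.49, and Rbp4 read 4.95, 5.20, 5.14, 5.39 and 6.51. Solute carriers were there too. Slc6a13, a GABA and taurine carrier, read 5.81, 5.82, 5.12, 5.76 and 7.87, and its relative Slc6a12 read 4.60, 4.88, 4.44, 4.33 and 6.57. Slc13a3, a dicarboxylate carrier, read 5.40, 5.15, 5.05, 5.10 and 7.23, and Slc47a1, an organic cation exporter, read 6.07, 6.06, 5.84, 5.80 and 7.66. Abcb1a, the drug efflux pump of the blood-brain barrier, read 5.45, 5.64, 5.31, 5.56 and 6.83. Cell contact genes were the last group: E-cadherin, Cdh1, read 5.76, 5.66, 5.52, 5.80 and 6.90, and the gap junction genes Gjb2, Gjb6 and Gja1 were 1.96-fold, 2.17-fold and 1.97-fold above the mean of the other arrays. All of these genes were chosen with array 5 as the far and high array, so its place above the other 4 arrays follows from that choice.

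The 4 genes with array 5 as the far and low array were Dlk1, an imprinted transmembrane ligand, the small RNA genes Scarna17 and Snord57, and the microRNA gene Mir692-1. Dlk1 read 7.94, 8.47, 8.22, 8.43 and 7.16. Scarna17 read 10.24, 10.19, 9.99, 9.90 and 9.12. The mean of the ion and water list read 9.72, 9.77, 9.69, 9.71 and 9.73, and array 5 lay within the range of the others. The mean of the cilium list read 6.47, 6.46, 6.45, 6.46 and 6.39, lowest in array 5.

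Markers of stromal and meningeal cells also ran high in array 5. The list mean read 6.87, 7.00, 6.88, 7.09 and 7.50, and 8 of its 13 genes were highest in array 5, which was the highest array for 19.7% of all genes above the bound. The list's excess in array 5 over the other arrays was 0.54 as a mean and 0.31 as a median. Aldh1a2, Slc47a1 and Igfbp6 belong to the list and were among the 44 genes chosen for being high in array 5. Without them the other 10 members read 7.18, 7.38, 7.32, 7.47 and 7.56 on average, an excess of 0.22, and 5 of the 10 were highest in array 5. Dpt, a defining fibroblast gene, was at background in all arrays, from 3.01 to 3.13. Macrophage genes read 5.01, 4.92, 4.92, 4.93 and 5.23 on average, with array 5 highest in 9 of 14, and endothelial genes read 5.82, 5.95, 5.90, 5.98 and 6.11, with array 5 highest in 8 of 13. Neuron genes were highest in array 5 for none of 13. The part of these cell types in the difference of array 5 was not tested, and array 5 is also the only wild-type array with label number 451, so mouse and label number cannot be told apart.

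The other genotypes offered arrays that the rule had not used. Of the 61 variable genes, 17 (27.9%) had a range of at least 1 over the 5 heterozygous arrays and 36 (59%) over the 5 null arrays, beside 1.8% and 1.75% of all genes with a wild-type mean above the bound. The count of 17 was 5 without heterozygous array 4, and the count of 36 was 15 without null array 4. The 44 genes were highest in heterozygous array 4 for 35 (79.5%), which was the highest heterozygous array for 27.1% of all genes, and in null array 4 for 36 (81.8%), against 11.5%. Their mean level read 5.58, 5.63, 5.32, 6.03 and 5.62 in heterozygous arrays 1 to 5 and 6.04, 5.78, 5.75, 6.70 and 5.64 in null arrays 1 to 5. In the wild-type arrays, from which they were chosen, it read 5.57, 5.54, 5.35, 5.55 and 6.90. In each genotype 1 array was thus the highest for most of the 44. Heterozygous array 4 shares label number 432 with heterozygous array 3, and null array 4 shares 468 with null array 3. Null arrays 1 and 5 had Xist signals of 9.09 and 9.69 and signals of the 3 Y-linked genes from 3.19 to 4.27, against their male label, and without them 28 of the 61 genes had a range of at least 1.

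**Figure D5:**
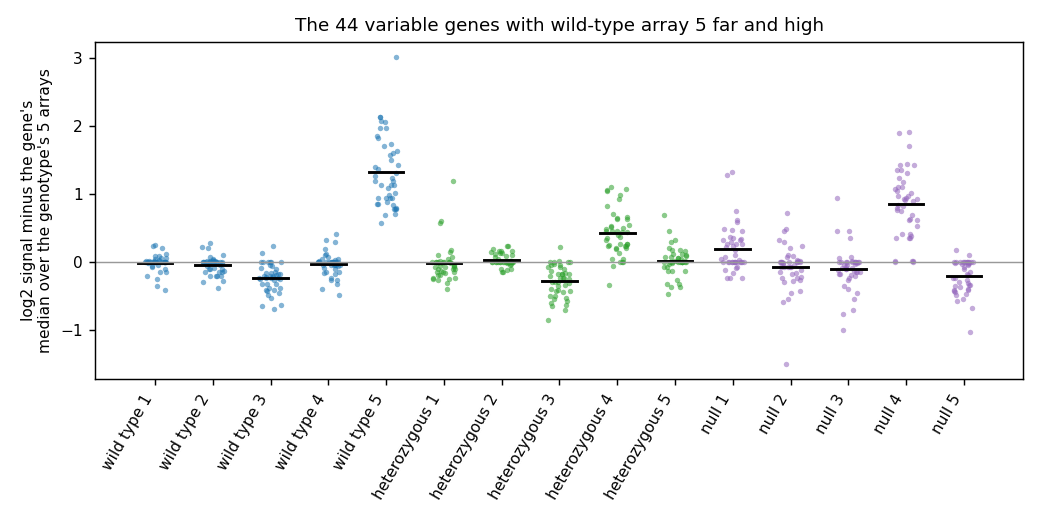
Log2 signal minus the gene's median over the 5 arrays of its own genotype (y axis) for the 44 variable genes with wild-type array 5 as the far and high array, in each of the 15 arrays (x axis). Points are genes and bars are means: wild-type array 5 and null array 4 stand highest in their genotypes, and heterozygous array 4 stands above the other heterozygous arrays.

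The 8 genes that varied without array 5 differed in other ways. Abhd1, a hydrolase gene, read 5.78, 5.78, 7.23, 7.23 and 5.57. In the wild-type arrays it fell into 2 sharp levels, with both arrays of label number 432 high and the arrays of 429 and 451 low. Acp2, a lysosomal acid phosphatase, had a smaller step of the same form at 7.79, 7.71, 8.47, 8.47 and 7.74. Heterozygous arrays 2 to 4 carry the same numbers, 429 for array 2 and 432 for arrays 3 and 4. There Abhd1 read 7.18, 7.31 and 7.37 and Acp2 read 8.49, 8.60 and 8.34, so neither showed that step. Between the wild-type arrays of label numbers 429 and 432, 18 of the 14023 genes with a mean above the bound stood apart. In these the arrays of the 2 numbers did not overlap and the means lay at least 0.5 apart, 9 in each direction. Those lower with 432 included Herpud1, of endoplasmic reticulum degradation, at 9.84, 9.92, 9.15, 9.36 and 9.39, and the heat shock gene Hspa1a at 6.79, 6.88, 6.27, 6.37 and 6.80. Other pairings of these arrays were not counted, so the 18 genes do not measure an effect of label number. The correlation was 0.9952 within number 429 and 0.9947 within 432. It was highest, 0.9957, between arrays 2 and 4, of different numbers.

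Acta2, the smooth muscle actin of vessel walls, was also among the 8, at 5.67, 6.70, 5.84, 6.30 and 5.73, high in arrays 2 and 4. Ugt8a, which makes the galactolipids of myelin, read 5.06, 4.81, 5.35, 6.06 and 5.18, high in array 4. Other myelin genes were also highest in that array: Mbp, myelin basic protein, read 6.95, 7.17, 7.14, 7.63 and 7.26, and Mog, a myelin surface protein, read 5.42, 5.32, 5.44, 6.01 and 5.50. The mean of the oligodendrocyte list was 5.99 in array 4 and from 5.46 to 5.67 in the others, and the neuron list mean was 5.23 in array 4 and from 4.99 to 5.08 in the others. The part of these cells in the Ugt8a value was not tested. The remaining members of the 8 were Zfp617, Lhfpl4, the ribosomal RNA gene n-R5s136 and 2 unnamed transcripts.

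Circadian clock genes were detected throughout. The clock runs on the factors BMAL1 (Arntl) and CLOCK, which switch on Per, Cry and Nr1d genes through E-boxes, and their products feed back on it. All 17 measured members exceeded the bound in every array, beside 67.8% of all genes. Their median was 6.83, and none met the variable rule. Dbp, an output factor, was highest at 8.79 ± 0.214, and Arntl was lowest at 5.33, 4.96, 5.03, 5.19 and 5.40. Among the largest SDs of the list were those of Per1 and Ciart. Per1, a clock repressor, read 6.61, 7.12, 6.28, 6.91 and 7.23. Ciart, another repressor, read 7.11, 7.25, 6.64, 7.00 and 6.30. Nr1d1, the repressor REV-ERB alpha, read 8.45, 8.31, 8.16, 8.39 and 7.57. Array 5 was the lowest for Ciart and Nr1d1 and the highest for Per1, and array 3 was low for Per1 and Ciart. The labels used here give no time of day for the dissections.

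Per1 and Ciart both carry the E-box CACGTG in the 250 bases before their start, and their promoters are shown because this is the element through which the clock acts. The letters come from RefSeq on GRCm38.p6, 5′ to 3′ on the strand of the gene, with each E-box in capitals. The motif reads the same on both strands.
Per1, chr11:69098699-69098948, plus strand: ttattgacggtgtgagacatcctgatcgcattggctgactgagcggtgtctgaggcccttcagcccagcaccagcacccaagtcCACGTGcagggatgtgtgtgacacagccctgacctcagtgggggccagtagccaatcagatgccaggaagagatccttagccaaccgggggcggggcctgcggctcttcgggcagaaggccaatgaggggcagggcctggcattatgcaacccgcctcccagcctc
Ciart, chr3:95882229-95882478, minus strand: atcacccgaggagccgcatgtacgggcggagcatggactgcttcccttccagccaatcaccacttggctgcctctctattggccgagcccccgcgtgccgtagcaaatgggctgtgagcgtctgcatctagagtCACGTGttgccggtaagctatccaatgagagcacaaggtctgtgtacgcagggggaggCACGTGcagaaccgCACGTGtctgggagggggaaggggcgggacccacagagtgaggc
Per1 had 1 E-box at -166 from the start and Ciart had 3, at -116, -58 and -44. CACGTG was present in 1978 of 32851 promoter windows of that length (6.02%) and in windows of 5 of the 16 clock genes found in the promoter set, namely Bhlhe41, Ciart, Cry1, Per1 and Tef. The cyclic AMP element TGACGTCA was in 1.55% of windows and in that of Hlf among clock genes, and the D-box TTATGTAA was in 0.819% and in that of Per3. A match is a description of letters and not of binding.

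Genes that respond quickly to stimuli and stress ranged from near background to high. Immediate early genes lay near the level of all genes: 22 of 25 exceeded the bound in every array, beside 67.8% of all genes, with a median of 5.26 beside 5.28. Fos read 4.50, 4.42, 4.52, 4.41 and 4.48, and Egr1 read 4.96, 4.82, 4.76, 4.96 and 4.82, so neither separated the mice. Dusp1, a phosphatase induced early, was highest at 7.69, 7.75, 7.64, 7.71 and 7.87. Sik1, a kinase gene induced by cyclic AMP, was variable at 7.89, 7.68, 7.47, 7.96 and 8.60. Dnajb1, a heat shock cochaperone, read 7.64, 7.68, 7.38, 7.30 and 8.12, and array 5 was highest for both. Glucocorticoid-responsive genes were above the bound for 10 of 11, and Sgk1, a kinase gene of that group, read 8.99, 9.32, 9.10, 9.09 and 9.01. Of 15 measured interferon and MHC class I genes 9 were above the bound, with Ifi27 at 10.20 and Mx1, an antiviral protein gene, at 3.40. Heat shock genes were above it for all 13 measured members, with a median of 9.34.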

How the data were processed

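Total RNA was labelled from 250 ng with a whole-transcript kit, per the labels' protocols. The authors' deposited values are log2 signals made with RMA in Affymetrix Expression Console 1.1, per the submitters' processing notes, and the log base was inferred from their span of 1.58 to 13.81 in the wild-type arrays. RMA quantile-normalizes arrays together, so an overall difference between arrays is removed (wild-type medians 4.78 to 4.82). For the probe sets, genome build and annotation: not given in the sources used here. Gene symbols came from the platform's annotation table, with 21698 gene IDs matched to RefSeq GRCm38.p6: 21789 had 1 symbol, 1621 had several and were left out, and 12146 were not listed. Where a gene had several probe sets (999 genes), that with the highest wild-type mean was used. Sequences are from RefSeq, GRCm38.p6.

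Levels and spreads were computed with Python 3.11.15, pandas 2.3.3 and numpy 2.4.6 and checked on simulated data. No level or spread was tested, because genes were ranked by these values, and Dixon's ratio only marked single arrays that stand apart. Genes were named by rule: the 30 highest means, the 30 largest SDs above the bound, up to 8 members of each list by level and 4 by SD, the 10 smallest SDs among the 500 highest means, and each family's highest members. Unnamed gene models were passed over and ribosomal proteins counted as a group. A few others were named after their values were seen, such as the label-number genes. The members and lists were chosen with earlier results of these data known. Alternatives were another bound, centring or quantile normalization, averaged probe sets, a range of 0.8 and leaving out arrays. The labels name 5 mice per genotype, and the number of arrays limits the precision.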

Additional observations from a re-analysis of the deposited data

Results flagged for a closer look

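For each gene named above and for the mean of each gene list, the gap between the most extreme wild-type array and its nearest neighbour was divided by the range of the 5 arrays, and a ratio above 0.71, Dixon's 95% critical value for 5 samples, marked 1 array as standing apart. Chance marks about 1 in 20 groups, and among the 14023 genes with a mean above the bound the ratio passed for 9.49%. Of the 175 named genes 32 passed, 22 of them through array 5. Many of the named genes were chosen for their spread over these arrays, so their share is only a description.

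Array 5 was the highest array for the first genes given here. The ratio was 0.875 for Prg4, 0.905 for Aldh1a1, 0.866 for Crabp2, 0.855 for Slc47a1 and 0.839 for Slc13a3. For Cdh1, Nnat, Abcb1a and Serpind1 it was 0.797, 0.791, 0.783 and 0.783. It was 0.763 for Fn1, 0.758 for Mgp, 0.754 for Slc6a12, 0.752 for Nbl1 and 0.748 for Ptgds. For Slc6a13, Gjb2 and Rbp4 it was 0.745, 0.729 and 0.718.

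Array 5 was also highest for the complement gene C1qa, with 0.75, and the Y-linked gene Kdm5d, with 0.727. It was lowest for Car14, with 0.833, for Lbp, with 0.75, and for Add2, with 0.75, which lies under the bound. Array 2 was highest for Atp1b1 and Car12, with 0.75 each, and array 3 was highest for Slco1a4, with 0.944, and Baiap2l1, with 0.737. The transcription factor gene Rfx3 was lowest in array 3, with 0.75. Array 4 was highest for the myelin gene Mog, with 0.739, and lowest for Hnrnpab and Rpn2, with 1 each, where the other 4 values were equal to 2 decimals. The insulin receptor gene Insr was lowest in array 1, with 0.76, and Mx1 was highest there, with 0.742, at values under the bound.

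Among the 30 list means, 3 passed. The cilium list was lowest in array 5, with a ratio of 0.782, the macrophage list was highest in array 5, with 0.718, and the glucocorticoid list was highest in array 2, with 0.783.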

How the results depend on the processing

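The count of genes above the bound, 13516, ranged from 9545 with the median of all values as the bound to 14023 with only the mean required to exceed it, and from 13440 to 13576 when 1 wild-type array was left out. The count of variable genes, 61, was 139 when a range of 0.8 sufficed, and it ranged from 8 (without array 5) to 57 when 1 array was left out. It was 46 with the stricter bound, 65 with no bound, 59 with arrays centred on their medians, 59 after another quantile normalization and 60 with the mean of a gene's probe sets. In the other genotypes the counts of 17 and 36 ranged from 5 (without heterozygous array 4) to 16, and from 15 (without null array 4) to 34, in alternatives mostly chosen after seeing the data. List members above the bound were 367 in all, 291 with the stricter bound and 367 to 371 with 1 array left out. The excess of the stromal list in array 5 was 0.54 as a mean, with a median of 0.31, and 0.53 or 0.54 after rescaling. It was 0.22 without the 3 members that the rule for array 5 had chosen, an alternative added after seeing the data. Of 2576 mean levels of named genes under the alternatives, 16 moved by more than the spread between arrays, 13 of them with the mean of probe sets. No paired analysis was possible because only the wild-type group was described and no groups were compared. With 5 arrays the precision of every spread is low.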

Other observations

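Some genes gave a signal far above the rest of their family, and the cause was not tested. The defensin gene Defb11, of a family of antimicrobial peptides, read 9.47, 9.40, 9.76, 9.61 and 9.60 in the wild-type arrays, while the next of 42 defensins, Defb13, read 5.94. The olfactory receptor genes Olfr570 and Olfr767 read 7.93 and 6.52 on average, the highest of the 1027 that set the bound. The lens chaperone gene Cryab, also used in other tissues, read 9.28, while Crybb2 was next among 18 crystallins at 5.98.

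Further genes differed between the wild-type arrays of label numbers 429 and 432. Igfn1 read 6.17, 6.15, 5.40, 5.54 and 5.93, and Piga, of GPI anchor synthesis, read 6.87, 6.82, 6.22, 6.22 and 6.51, both lower with label number 432. Bmf, a cell death regulator, read 5.81, 6.14, 6.39, 6.63 and 5.89, higher with 432. In the heterozygous array of number 429 Igfn1, Piga and Bmf read 5.84, 6.23 and 6.47. In both heterozygous arrays of number 432 Igfn1 read 5.75 and 5.62, Piga read 5.97 and 6.32, and Bmf read 6.36 and 6.53, so the values of the 2 numbers overlapped for Piga and Bmf. The haem synthesis gene Alas2 of red cells read 5.58, 5.73, 5.91, 6.29 and 5.39, highest in array 4. These genes were chosen after their values were seen.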
